A study of Homo sapiens with 9 samples.

Results

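Insulin-like growth factor (IGF) signaling was followed through 10 genes of the deposited count table, chosen by symbol from its 60591 symbols. They are the receptors IGF1R, INSR and IGF2R, the adaptors IRS1 and IRS2, and the secreted binding proteins IGFBP1, IGFBP2, IGFBP3, IGFBP4 and IGFBP6. All 10 symbols were found. The cells were undifferentiated Caco-2 (uCaco-2), a line from a human colon adenocarcinoma that proliferates in this state. They received 300 μM Cobalt (II) chloride (CoCl2), 5 μM of an oxyquinoline derivative (OD) or fresh medium (control) for 24 h, and 0.5% DMSO was present in all 3 groups. Each group had 3 libraries, described as biological replicates of 1 cell line, which limits the model to that line and to chemical inducers of the hypoxia response.

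IGF1 and IGF2 bind IGF1R, and insulin binds INSR, and both are tyrosine kinases. The active receptors phosphorylate IRS1 and IRS2, which recruit phosphoinositide 3-kinase (PI3K) and so switch on AKT. AKT keeps FOXO transcription factors out of the nucleus and, through TSC1, TSC2 and RHEB, activates mTORC1. IGF2R has no kinase, carries mannose 6-phosphate-tagged enzymes to lysosomes and takes up IGF2 for breakdown. The IGFBPs are secreted proteins that hold IGFs outside the cell and prolong or block their access to IGF1R. In the intestinal epithelium the pathway is known for driving crypt proliferation. Both treatments are used because they inhibit the prolyl hydroxylases that mark hypoxia-inducible factors (HIF) for breakdown.

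Library totals ranged from 15998136 to 24209427 counts. The TMM factors of edgeR, which adjust each total for its RNA composition, lay at 1.11 to 1.12 in control, 1.14 to 1.15 in OD and 0.770 to 0.795 in CoCl2. If libraries were scaled by their totals alone, the CoCl2 effect had a median of -0.55 on the log2 scale over all genes, against -0.049 with TMM, so smaller changes with CoCl2 depend on this choice. Of 8 intestinal epithelial markers, 7 (EPCAM, CDH1, VIL1, KRT8, KRT18, CDX2 and HNF4A) had more than 3 counts in every library and CDX1 had none in any. VIL1, which encodes the microvillus protein villin, fell by 2.45 on the log2 scale with CoCl2. Of 9 markers of other cell types, 4 had more than 3 counts in every library, and the sum over the list was 20.4 to 24.9 CPM in control, 13.3 to 14.5 with CoCl2 and 30.2 to 31.9 with OD, against 9877 to 13033 CPM for the epithelial list. The part of these shifts in the results below was not tested.

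The promoters of 3 genes are shown, IRS2 and IGFBP4 for the pattern of their transcripts and IGF2R for the sequence of its window. IRS2 changed most, IGFBP4 moved in opposite directions with the treatments, and the IGF2R window held a repeated palindrome that contains a hypoxia-type core. Each is the stretch of 250 bases before the RefSeq start on GRCh38.p14, read 5′ to 3′ on the gene's strand. Capitals mark matches, on either strand, to ACGTG or GCGTG (cores of the hypoxia response element), GTAAACA (a FOXO element) or TGACNNNGC (the antioxidant response core).
IRS2, chr13:109786584-109786833, minus strand: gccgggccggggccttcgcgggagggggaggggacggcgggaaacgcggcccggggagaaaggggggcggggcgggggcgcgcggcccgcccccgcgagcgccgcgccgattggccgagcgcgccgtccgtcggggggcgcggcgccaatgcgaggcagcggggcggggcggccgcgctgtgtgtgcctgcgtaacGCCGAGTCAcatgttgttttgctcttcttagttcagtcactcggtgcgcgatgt
IGFBP4, chr17:40443200-40443449, plus strand: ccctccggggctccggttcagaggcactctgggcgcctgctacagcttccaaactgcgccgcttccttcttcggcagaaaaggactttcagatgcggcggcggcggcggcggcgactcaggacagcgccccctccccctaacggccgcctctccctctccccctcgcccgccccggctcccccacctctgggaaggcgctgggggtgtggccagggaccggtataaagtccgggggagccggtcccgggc
IGF2R, chr6:159968832-159969081, plus strand: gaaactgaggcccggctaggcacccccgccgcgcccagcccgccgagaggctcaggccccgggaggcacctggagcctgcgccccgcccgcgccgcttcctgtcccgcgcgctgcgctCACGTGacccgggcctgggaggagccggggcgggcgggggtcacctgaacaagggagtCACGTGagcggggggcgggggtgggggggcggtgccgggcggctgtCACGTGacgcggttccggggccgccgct

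The IGF2R window held ACGTG at 3 places, starting at bases -132, -74 and -28 from the start, each time on both strands because the letters read CACGTG, which is also the palindromic E-box. Neither hypoxia core occurred in the IRS2 or IGFBP4 window, and 43.2% of 35116 promoter windows of this length held at least 1 of them. The IRS2 window held 1 match to TGACNNNGC on its opposite strand, at bases -54 to -46, a motif found in 10.9% of the windows. CACGTG was found in 6.34%. RefSeq windows were matched for 9 of the 10 genes, and the INSR window held none of the motifs searched. Hypoxia cores were not particular to IGF2R. The IGF1R window held 1 ACGTG and 4 GCGTG, and GCGTG also occurred in windows of IRS1, IGFBP2 and IGFBP3. Of all windows 18.5% held ACGTG and 32.2% held GCGTG. The IGFBP6 window held GTAAACA, found in 2.98% of all windows. The windows shown were 76.4% (IRS2), 71.6% (IGFBP4) and 79.2% (IGF2R) G or C, beside a median of 58% over all windows. The shares were not matched for this. A match of letters is a description and not a binding site.

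Of the 10 genes, 8 passed the expression filter of edgeR and were tested, and IGFBP1 and IGFBP3 did not. A gene is said to have risen or fallen where the adjusted p of the quasi-likelihood test (Benjamini-Hochberg, over all tested genes) was under 0.05, and is called where the log2 fold change also passed 1 in size. With CoCl2 4 of the 8 were called, beside 43.2% of all tested genes. IRS2 and IGFBP6 were higher (19.9% of all genes) and IRS1 and IGFBP4 lower (23.4%). With OD 5 of the 8 were called, beside 13.3% of all genes. All 5 (INSR, IRS2, IGFBP2, IGFBP4 and IGFBP6) were higher, as were 9.09% of all genes, and none was lower, beside 4.16%. Between the treatments 4 of the 8 were called, beside 41.3%, with IRS2 higher (17.5%) and IRS1, IGFBP2 and IGFBP4 lower (23.8%) in CoCl2. By the adjusted p alone 6 were higher and 2 lower with CoCl2 under TMM (83.2% of all genes passed, 40.4% up and 42.8% down). The 6 include IGF1R, whose sign depends on the scaling. With OD 7 rose and none fell (65.6% passed, 32.3% up and 33.3% down), and between the treatments 3 were higher and 5 lower in CoCl2 (83.5% passed, 40.2% and 43.2%). Libraries of the compared groups did not overlap for 8 genes with CoCl2, 7 with OD and 8 between the treatments, beside 83.4%, 68% and 83.8% of all genes. Regardless of direction, the counts that involve CoCl2 were therefore near those of all genes. By the adjusted p alone under TMM, more of the 8 were higher with CoCl2 than among all genes (6 of 8, beside 40.4%). The median of the 8 log2 fold changes was 0.73 for CoCl2 and 1.05 for OD, beside -0.049 and -0.010 over the whole tested set. Both comparisons share the control libraries. In such bulk samples fewer cells that express a gene and less of its RNA per cell cannot be told apart.

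**Figure D1:**
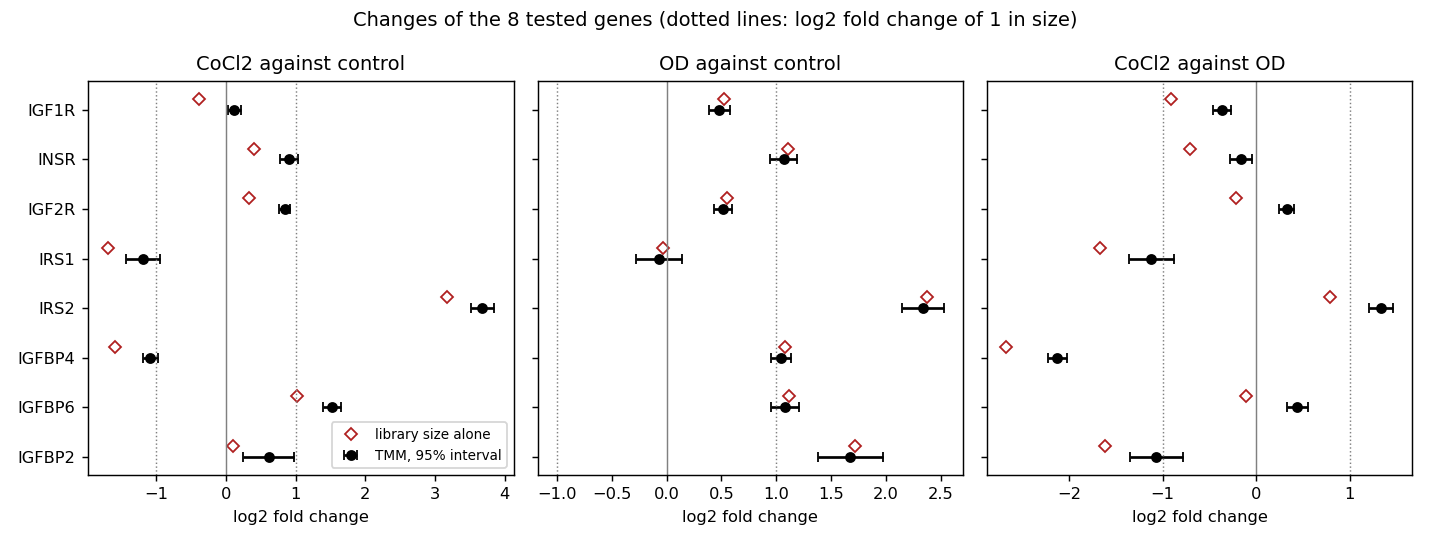
Log2 fold changes of the 8 tested genes with CoCl2 and OD against control and with CoCl2 against OD. Black points with bars are the TMM-scaled fit with its 95% interval, open diamonds come from scaling by library size alone, and dotted lines mark a log2 fold change of 1 in size. With CoCl2 the diamonds sit lower for every gene, and IGF1R changes sign from 0.12 to -0.38.

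Adaptors. IRS2 was the most strongly changed gene of the family with either treatment, and IRS1 fell with CoCl2. IRS2, on chromosome 13 (chr13:109752695-109786583, GRCh38, minus strand), encodes insulin receptor substrate 2, the adaptor known for its part in hepatic and beta-cell insulin signaling. Its level was 5.06, 4.36 and 4.66 CPM (TMM-scaled counts relative to library size) in the control libraries, 64.5, 59.3 and 56.5 CPM with CoCl2, and 22.7, 25.1 and 23.4 CPM with OD. The 3 groups did not overlap, with CoCl2 the highest and control the lowest. CoCl2 gave a log2 fold change of 3.68 (standard error 0.085, adjusted p = 1.58e-45), a 12.8-fold rise, and 2.34 with OD (standard error 0.095, adjusted p = 1.77e-31), a 5.06-fold rise. By size these changes ranked 313 and 258 among 15944 tested genes. The level with CoCl2 was 2.53-fold above that with OD (adjusted p = 8.53e-29), with a log2 difference of 1.34, or 0.79 with library size alone, then under the threshold of 1. An antisense gene overlaps 1.41% of the exonic bases of IRS2.

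IRS1 (chr2:226731312-226799820, minus strand) encodes the widely expressed adaptor that links IGF1R to growth. Its level was 57.1, 54.1 and 59.3 CPM in control, 20.7, 22.5 and 30.4 CPM with CoCl2, and 57.1, 55.6 and 49.4 CPM with OD. The CoCl2 libraries lay below all others, with replicate 3 highest among them, while OD and control overlapped. IRS1 was 2.29-fold lower with CoCl2 than in control (log2 fold change -1.19, standard error 0.111, adjusted p = 2.76e-07) and 2.18-fold lower than with OD (adjusted p = 5.01e-07). Without CoCl2 replicate 3 the log2 fold change was -1.40. With OD it was -0.069 (adjusted p = 0.554), with a 95% interval from -0.28 to 0.14. IRS1 had the largest biological coefficient of variation among the 8 tested genes, 8.48% against 3.38% to 4.85% for the others. This is edgeR's estimate, moderated across genes, and not the observed spread within a group.

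The balance of the adaptors within a library does not depend on scaling between libraries. Per kilobase of exon, the ratio of IRS1 to IRS2 was 9.20, 10.1 and 10.4 in control, 0.261, 0.309 and 0.438 with CoCl2, and 2.05, 1.80 and 1.72 with OD. IRS1 was thus the more abundant adaptor transcript in every control and OD library, and IRS2 in every CoCl2 library. Across the 9 libraries an exact permutation test over 1680 arrangements, two-sided, gave p = 0.00357, the smallest it can give, for this ratio and for that of INSR to IGF1R below, and Benjamini-Hochberg adjustment over these 2 ratios left it at 0.00357. With 3 libraries against 3 an exact test cannot go below 0.1, the value found for every pair of groups and both ratios.

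**Figure D2:**
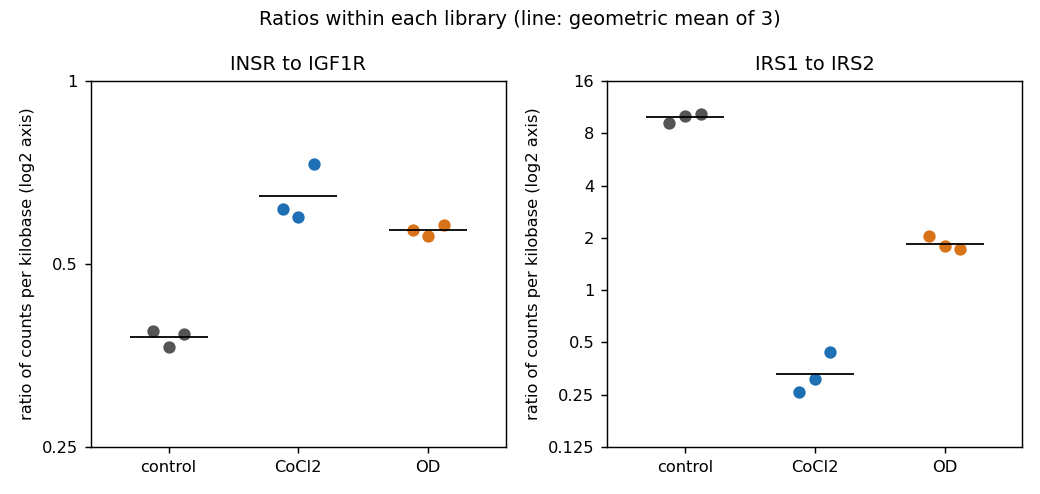
Ratio of counts per kilobase of exon of INSR to IGF1R (left) and of IRS1 to IRS2 (right) in each of the 9 libraries, on log2 axes, by group. Points are replicates 1 to 3 from left to right and lines are geometric means. The ratio of IRS1 to IRS2 was 9.20 to 10.4 in control, 1.72 to 2.05 with OD and 0.261 to 0.438 with CoCl2.

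Receptors. INSR and IGF2R rose with both treatments, and IGF1R rose with OD. INSR (chr19:7112255-7294414, minus strand) encodes the insulin receptor, which also forms hybrid receptors with IGF1R. Its level was 23.1, 22.7 and 23.3 CPM in control, 41.2, 40.4 and 47.0 CPM with CoCl2, and 48.8, 48.1 and 48.0 CPM with OD. No treated library came near the control range. CoCl2 gave a log2 fold change of 0.90 (standard error 0.065, adjusted p = 7.08e-20) and 1.07 with OD (standard error 0.063, adjusted p = 1.74e-23). With TMM, INSR was slightly lower with CoCl2 than with OD (log2 difference -0.17, adjusted p = 0.0086), which did not pass without CoCl2 replicate 1 or 2 (adjusted p = 0.0691 and 0.0751).

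IGF1R (chr15:98648539-98964530, plus strand) encodes the main signaling receptor for IGF1 and IGF2. Its level was 76.8, 80.1 and 78.1 CPM in control, 86.2, 87.0 and 82.7 CPM with CoCl2, and 110.3, 111 and 107 CPM with OD. The OD libraries were highest, and those with CoCl2 sat just above control. The log2 fold change with OD was 0.48 (standard error 0.047, adjusted p = 5.05e-14). The difference with CoCl2 was 0.12 (adjusted p = 0.0203), and its sign turned with library size alone, to -0.38 (adjusted p = 7.3e-10), and without control replicate 3 the TMM value was 0.11 (adjusted p = 0.0608), so no direction is given for IGF1R with CoCl2. Relative to OD it was lower with CoCl2 under either scaling, with log2 differences of -0.36 and -0.91.

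The ratio of INSR to IGF1R per kilobase was 0.388, 0.365 and 0.384 in control, 0.616, 0.598 and 0.731 with CoCl2, and 0.570, 0.557 and 0.580 with OD. Every treated library lay above every control library. IGF1R remained the more abundant of both receptor transcripts in all 9 libraries. The CoCl2 and OD ratios differed by 0.18 on the log2 scale, or 0.094 without CoCl2 replicate 3.

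IGF2R (chr6:159969082-160113507, plus strand) encodes the cation-independent mannose 6-phosphate receptor. Its level was 257, 255 and 245 CPM in control, 459, 428 and 471 CPM with CoCl2, and 363, 363 and 357 CPM with OD. The groups did not overlap. CoCl2 gave a log2 fold change of 0.84 (standard error 0.041, adjusted p = 1.96e-28) and 0.52 with OD (standard error 0.041, adjusted p = 9.66e-18). The order of the treatments depended on scaling, since CoCl2 exceeded OD by 0.33 with TMM and fell short with library size alone, at -0.22. A pseudogene, CHP1P2, shares 2.53% of the exonic bases of IGF2R.

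Binding proteins. IGFBP4 and IGFBP6 made up nearly all transcripts of the 5 chosen IGFBPs, and they responded differently to CoCl2. IGFBP4 (chr17:40443450-40457725, plus strand) encodes a binding protein known as an inhibitor of IGF action until the protease PAPPA cleaves it. Its level was 124, 118 and 124 CPM in control, 60.8, 56.2 and 55.8 CPM with CoCl2, and 265, 257 and 231 CPM with OD. Control lay between the treatments without overlap. CoCl2 gave a log2 fold change of -1.08 (standard error 0.052, adjusted p = 9.64e-29), 2.12-fold lower, and 1.04 with OD (standard error 0.046, adjusted p = 1.18e-29), 2.06-fold higher. The direct difference was 4.36-fold, lower with CoCl2 (adjusted p = 5.08e-45), the largest between the treatments among the 8 tested genes.

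IGFBP6 (chr12:53097436-53102345, plus strand) encodes the binding protein known for its preference for IGF2 over IGF1. Its level was 23.8, 19.9 and 24.2 CPM in control, 66.7, 60.5 and 66.6 CPM with CoCl2, and 48.1, 48.6 and 46.1 CPM with OD. It rose with both treatments, by 2.87-fold with CoCl2 (log2 fold change 1.52, standard error 0.064, adjusted p = 1.94e-31) and by 2.11-fold with OD (log2 fold change 1.08, standard error 0.065, adjusted p = 5.13e-23). Control replicate 2 was the lowest library, and without it the change with OD was 0.99, just under the threshold of 1. CoCl2 exceeded OD by 0.44 on the log2 scale (adjusted p = 3.31e-10) with TMM, which turned to -0.10 with library size alone (adjusted p = 0.0949).

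IGFBP2 (chr2:216632828-216664436, plus strand) encodes a binding protein often raised in tumours. Its level was low, at 1.88, 2.26 and 2.08 CPM in control, 2.99, 2.86 and 3.57 CPM with CoCl2, and 6.58, 7.10 and 6.23 CPM with OD. The OD libraries stood apart above the others. The log2 fold change with OD was 1.68 (standard error 0.149, adjusted p = 1.29e-15), a 3.20-fold rise. With CoCl2 it was 0.61 (standard error 0.182, adjusted p = 0.0018) with TMM and 0.11 (adjusted p = 0.58) with library size alone, so whether it passed the adjusted p with CoCl2 depends on the scaling. IGFBP2 was lower with CoCl2 than with OD by 1.07 on the log2 scale (adjusted p = 6.09e-10).

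IGFBP1 (chr7:45888360-45893660, plus strand) and IGFBP3 (chr7:45912245-45921874, minus strand), neighbours that are known as hypoxia-responsive binding proteins in liver and vessel cells, did not pass the expression filter. IGFBP1 had 0, 3 and 2 counts in control, 3, 4 and 3 with CoCl2, and 3, 5 and 6 with OD. IGFBP3 had 0, 1 and 2 counts in control, 2, 1 and 0 with CoCl2, and 6, 5 and 2 with OD. Summed over 3 libraries, the exact Poisson 95% intervals were 1.62 to 11.7 counts for IGFBP1 in control, 4.80 to 18.4 with CoCl2 and 7.65 to 23.5 with OD, and 0.619 to 8.77 for IGFBP3 in control and with CoCl2 and 6.92 to 22.2 with OD, covering counting error only. At this depth both transcripts were barely detected in any group, and no fold change is given.

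**Figure D3:**
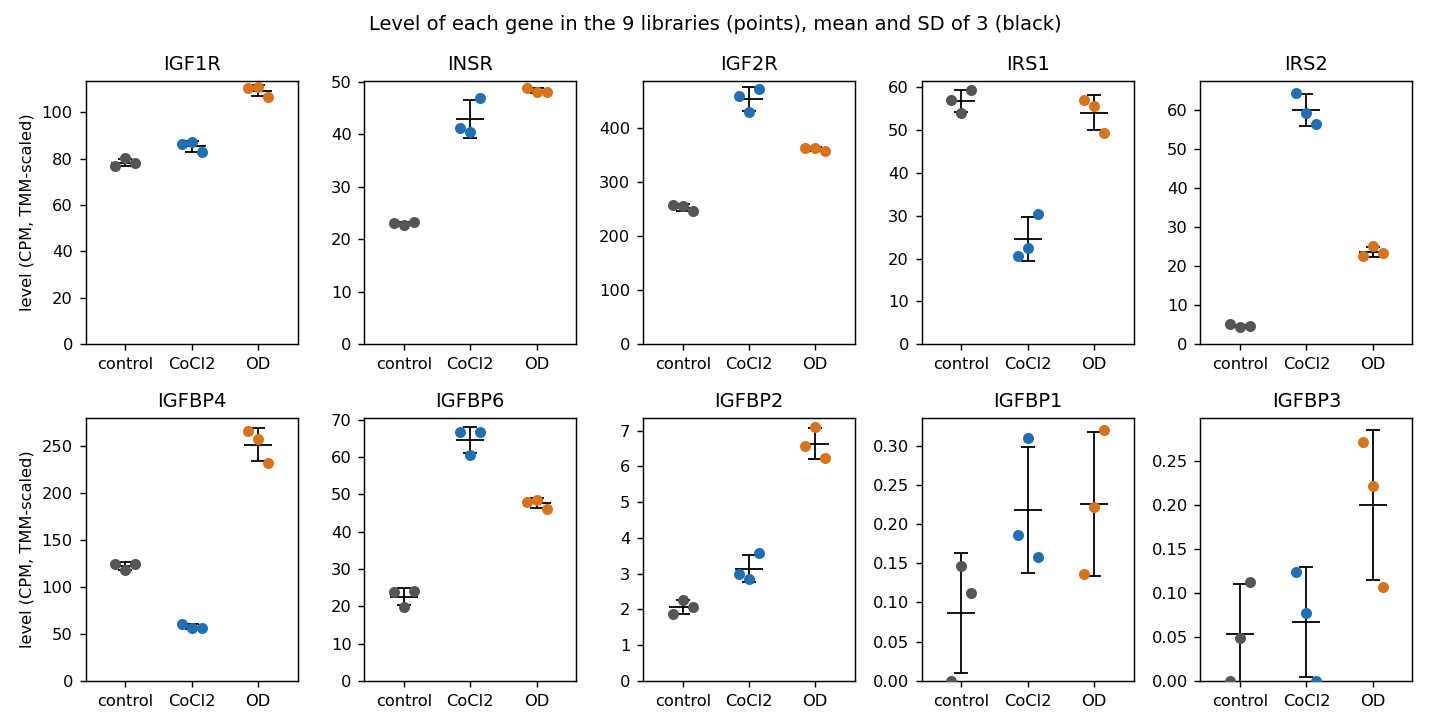
Level of each of the 10 genes in CPM, scaled by TMM, in the 9 libraries by group. Points are replicates 1 to 3 from left to right, and black marks give the mean and SD of 3. IRS2 rose from 4.36 to 5.06 CPM in control to 56.5 to 64.5 CPM with CoCl2, and IGFBP4 lay on opposite sides of control with the 2 treatments. IGFBP1 and IGFBP3 had at most 0.319 CPM.

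Taken per kilobase of exon, the 5 IGFBP transcripts together summed to 72.7 ± 3.41 CPM per kilobase (SD, n = 3) in control, 74.9 ± 3.37 with CoCl2 and 151 ± 9.01 with OD. The sum thus differed between CoCl2 and control by less than the spread between replicates, although its makeup did not stay the same. IGFBP4 held 75.3% to 77.7% of it in control, 33.5% to 35.8% with CoCl2 and 74.5% to 76.4% with OD. IGFBP6 held 21.5% to 24.0% in control, 63.1% to 65.4% with CoCl2 and 22.7% to 24.4% with OD. With CoCl2 IGFBP6 replaced IGFBP4 as the leading binding protein transcript, while with OD the shares overlapped those of control at a higher sum. The shares do not depend on scaling between libraries, whereas the sums do. IGFBP2 held 0.533% to 0.994% over all libraries. IGFBP7 is not among these 5 and is not in the sums or shares. Its mean level was 4.22 CPM per kilobase in control, 4.56 with CoCl2 and 4.05 with OD.

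**Figure D4:**
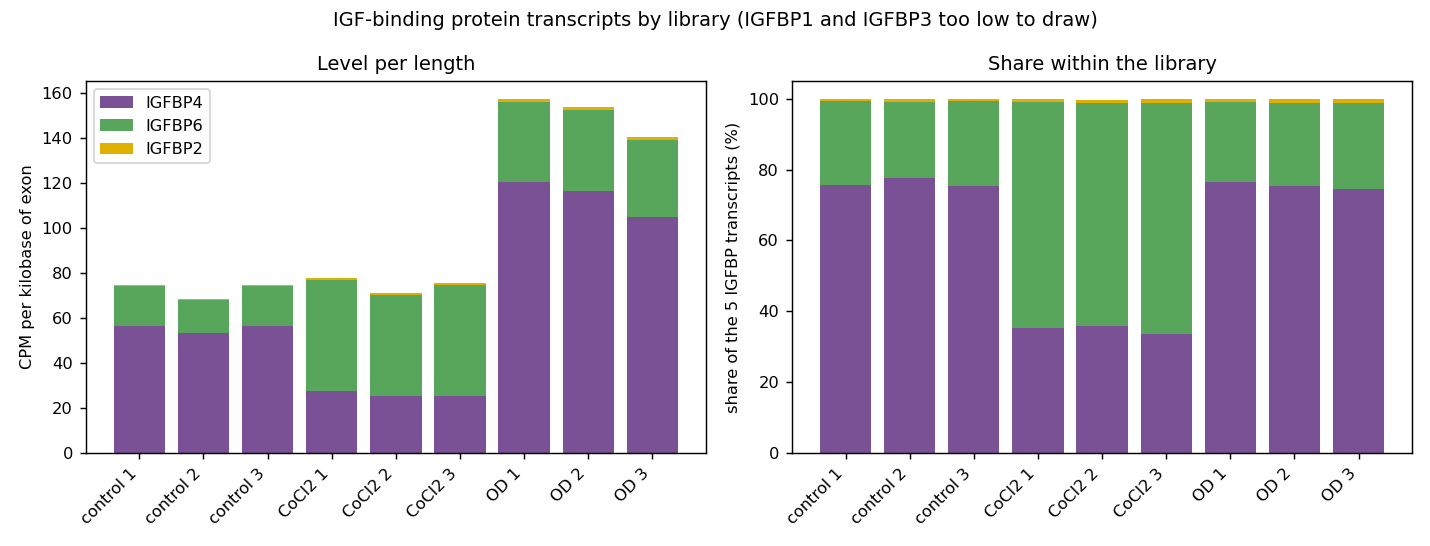
IGFBP transcripts in each of the 9 libraries, as CPM per kilobase of exon (left) and as the share of the 5 IGFBP transcripts within the library in percent (right), stacked for IGFBP4, IGFBP6 and IGFBP2. The summed level was 68.8 to 74.8 in control, 71.2 to 77.9 with CoCl2 and 141 to 158 with OD, and IGFBP6 held 63.1% to 65.4% with CoCl2, against 21.5% to 24.4% in the other libraries.

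Per kilobase, the order of mean levels in control was IGFBP4 (55.4 CPM per kilobase), IGFBP6 (16.8), IGF2R (11.2), IRS1 (5.67), IGF1R (5.62), INSR (2.13), IRS2 (0.575), IGFBP2 (0.437), IGFBP1 (0.0526) and IGFBP3 (0.0118). Neighbours in this order were separated in every library except IRS1 and IGF1R, and IGFBP1 and IGFBP3. With CoCl2 IRS2 moved from place 7 to place 4, at 7.37 CPM per kilobase, above IGF1R (6.12), INSR (3.96) and IRS1 (2.45). With OD the order was that of control except that IGF1R (7.84) stood above IRS1 (5.39) in every library.

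The genes with the profile most like that of IRS2 over the 9 libraries, among 13421 genes averaging 1 CPM or more, were RELT, EPS8 and MKNK2, with Pearson correlations of log2 CPM of 0.999, 0.999 and 0.998. For IGFBP4 they were PITPNM1, ESYT3 and ARHGEF10L (0.997, 0.996 and 0.996), and for IGFBP2 ARFGEF3, ASNS and ARHGAP27 (0.999, 0.995 and 0.992). Such values are common with 3 groups, since 713, 768 and 220 genes correlated above 0.95 with IRS2, IGFBP4 and IGFBP2, and the libraries, their scaling and the group means are shared.

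Other genes of the pathway were described by 6 lists of 48 genes, 38 of which were tested. With CoCl2 12 were called higher and 4 lower around a median log2 fold change of 0.32, and with OD 7 were called higher and none lower around a median of 0.23. The higher calls include PCK1 with both treatments and STC1 with CoCl2, which passed the expression filter only through treated libraries. Over all tested genes the shares called were 19.9% higher and 23.4% lower with CoCl2 and 9.09% higher and 4.16% lower with OD. For CoCl2 the share of the list genes called in either direction was near the 43.2% of all genes. The directional shares were not, since more of the list calls were higher. By the adjusted p alone 21 were higher and 15 lower with CoCl2, and 21 were higher and 11 lower with OD. The matching shares of all tested genes were 40.4% higher and 42.8% lower with CoCl2, and 32.3% and 33.3% with OD. With library size alone the calls with CoCl2 were 6 higher and 11 lower around a median of -0.18, so the balance of directions with CoCl2 depends on scaling, although none of the called genes changed sign. The values below are TMM-scaled.

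Ligands and their availability. Transcripts of the circulating ligands were nearly absent, with 0 counts of INS in every library, which allows up to 3 counts in each, and 0 to 7 counts of IGF1. IGF2, the fetal growth factor that many tumours express, was the measured ligand. It had 27.8 to 33.7 CPM in control and fell with both treatments, by 1.15 on the log2 scale with CoCl2 (adjusted p = 3.9e-16) and by 0.79 with OD (adjusted p = 8.94e-12). Other genes share 44.4% of its exonic bases, among them the INS-IGF2 readthrough, which limits what its counts can be assigned to. PAPPA, the protease that cleaves IGFBP4, and its relative PAPPA2 had at most 3 counts in any library. STC2, a secreted inhibitor of PAPPA, rose by 1.74 with OD, from 132 ± 2.77 to 442 ± 4.46 CPM (SD, n = 3), and by 0.76 with CoCl2, to 224 ± 10.5 CPM. STC1, its relative, had 6 to 9 counts in control and rose by 1.41 on the log2 scale with CoCl2 (standard error 0.362), or 0.91 and no longer called with library size alone. Its value with OD was 0.19 (adjusted p = 0.705). Among the 4 tested members of this list, CoCl2 gave 1 higher and 1 lower call (19.9% and 23.4% of all genes) and OD 1 higher call (9.09%). The higher call with CoCl2 is STC1, which passed the expression filter only through treated libraries.

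Adaptors and regulators close to the receptor. Of 8 tested genes, 2 were called higher with CoCl2 and 1 with OD, around medians of 0.35 and 0.19, beside 19.9% and 9.09% of all genes. With library size alone the CoCl2 median turned to -0.16, with 1 higher and 2 lower calls. SHC1 and GRB2, which carry receptor signals to the RAS pathway, rose with CoCl2 by 1.63 and 1.49. With OD GRB2 changed by 0.16 and SHC1 by 0.026 (adjusted p = 0.671). SH2B2, an adaptor of the insulin receptor, rose by 1.56 with OD and fell by 0.99 with CoCl2, from 2.96 ± 0.300 CPM in control to 8.73 ± 0.900 CPM (SD, n = 3) in OD and 1.39 to 1.68 CPM in CoCl2. Its direct difference between the treatments was 5.83-fold (adjusted p = 1.09e-22). GRB2 was at 0.98 with library size alone, just under the threshold.

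PI3K, AKT and FOXO. CoCl2 gave 3 higher calls and 1 lower call among 11 tested genes, and OD gave 1 higher call, around medians of 0.37 and 0.36, beside 19.9%, 23.4% and 9.09% of all genes. With library size alone the median with CoCl2 was -0.14. AKT1, which encodes the kinase downstream of PI3K, fell 2.97-fold with CoCl2, from 97.7 ± 1.95 to 32.7 ± 2.69 CPM (SD, n = 3), and was 97.5 ± 4.72 CPM with OD (log2 fold change -0.0025, 95% interval from -0.101 to 0.096). The PI3K subunits PIK3CA and PIK3R3 rose with CoCl2 by 1.15 and 1.19, or 0.64 and 0.69 with library size alone, and with OD by 0.36 and 0.54. FOXO1 rose by 1.61 with CoCl2 and 0.81 with OD, and FOXO4 by 0.62 and 1.49. All 3 FOXO genes of the list passed the adjusted p with both treatments, beside 83.2% of all genes with CoCl2 and 65.6% with OD. FOXO3 had 0.53 with CoCl2 and 0.96 with OD. With library size alone FOXO4 and FOXO3 were at 0.11 and 0.025 with CoCl2, so their rise there rests on the scaling.

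mTORC1 branch. CoCl2 gave 3 higher calls and 1 lower call among 7 tested genes, and OD gave none, where 5 of the 7 passed by edgeR's adjusted p alone. The shares of all genes called were 19.9% higher and 23.4% lower with CoCl2 and 13.3% in either direction with OD. With OD 65.6% of all genes passed the adjusted p alone. TSC1, which restrains mTORC1 together with TSC2, rose 4.08-fold with CoCl2, from 46.5 ± 2.27 to 190 ± 9.05 CPM (SD, n = 3), and by 0.60 on the log2 scale with OD. RHEB, the GTPase that activates mTORC1, rose by 1.36 with CoCl2, and RPS6KB1, which encodes an mTORC1 substrate kinase, by 1.08. Both were under the threshold with library size alone, at 0.86 and 0.58. With OD RPS6KB1 fell by 0.32, and RHEB had a value of -0.11 with overlapping libraries that passed the adjusted p with TMM only (0.0461, against 0.0638 with RLE factors and 0.22 with library size alone). EIF4EBP1, which encodes a translation repressor that mTORC1 inactivates, fell by 1.05 with CoCl2, or by 0.998 with RLE factors, which leaves the list with no lower call. The median of the list was -0.39 with CoCl2 and -0.069 with OD. With library size alone CoCl2 gave 1 higher call and 3 lower calls around a median of -0.89. The balance of calls in this list with CoCl2 thus depends on scaling.

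IGF2 mRNA-binding proteins. All 3 genes fell with both treatments, around medians of -0.82 with CoCl2 and -0.38 with OD, and 1 was called lower with CoCl2, beside 23.4% of all genes. By the adjusted p alone 42.8% of all genes were lower with CoCl2 and 33.3% with OD. IGF2BP1, an oncofetal protein that binds IGF2 and MYC mRNA, was the most abundant, at 621 ± 13.5 CPM in control (SD, n = 3). It fell to 281 ± 16.1 CPM with CoCl2 (log2 fold change -1.14) and to 506 ± 10.0 CPM with OD (log2 fold change -0.29).

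FOXO-activated metabolic genes. Of 5 tested genes, 3 were called higher with CoCl2 (19.9% of all genes) and 4 with OD (9.09%), and none lower. PCK1, among the calls with both treatments, passed the expression filter only through treated libraries, so it had little room to be called lower. G6PC and PDK4 had at most 1 and 7 counts in any library and were not tested. SESN3 was at -0.053 with CoCl2 (adjusted p = 0.564) and rose by 0.78 with OD. CCNG2, a cyclin of arrested cells, rose by 3.22 with CoCl2 and 2.54 with OD, from 8.41 ± 0.827 to 78.9 ± 5.37 and 49.2 ± 2.37 CPM (SD, n = 3). BCL6, a transcriptional repressor, rose by 2.38 and 1.08. TXNIP, which restrains glucose uptake, rose by 1.77 with OD and 0.69 with CoCl2. PCK1, which encodes the gluconeogenic enzyme phosphoenolpyruvate carboxykinase, had at most 1 count in each control library, 7 to 13 counts with CoCl2 and 18 to 26 with OD. Against a floor of 3 counts per control library it was at least 3.97-fold higher with CoCl2 and at least 6.72-fold higher with OD. The list median for CoCl2 was 2.38, or 1.99 if PCK1 is set to its bound, and for OD 1.76 either way. Several of these genes are also known to respond to HIF or to other stress pathways.

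**Figure D5:**
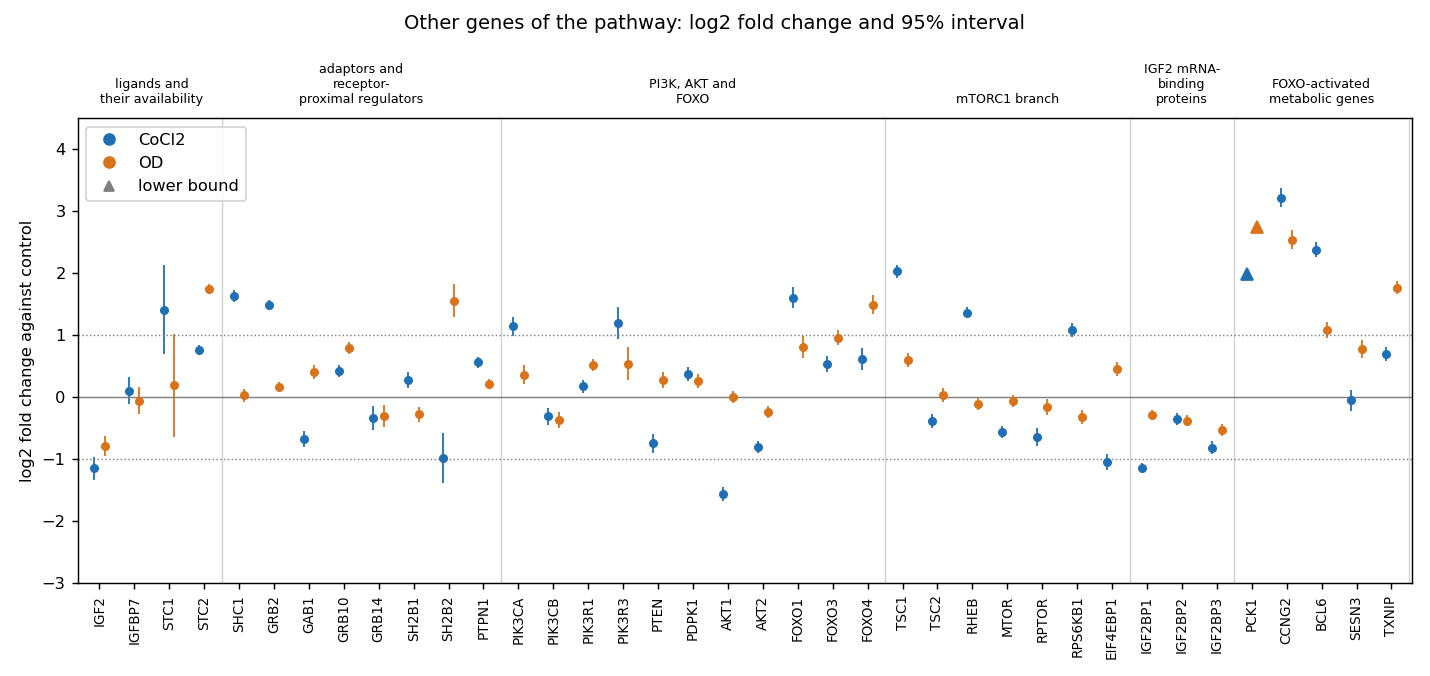
Log2 fold change against control with CoCl2 (blue) and OD (orange) for the 38 tested genes of the 6 other pathway lists. Bars are 95% intervals, triangles are lower bounds for PCK1 and dotted lines mark a log2 fold change of 1 in size. AKT1 sits at -1.57 with CoCl2 and near 0 with OD, and CCNG2 is above 2.5 with both.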

How the data were processed

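Messenger RNA of uCaco-2 cells was sequenced with single-end reads of 75 nucleotides from poly(A)-selected stranded libraries. The authors trimmed adapters with cutadapt 2.10, mapped reads on GRCh38.p13 with STAR 2.7.5b and counted them on GENCODE release 34. The deposited values are raw read counts per gene symbol, and the counting tool and its strand setting are not given in the sources used here. All 9 columns were used and 0 left out. The dCaco-2 libraries, patient data and proteome were not analysed here.

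Tests used edgeR 4.0.16 in R 4.3.3. Its default filter left 15944 of the 60591 symbols, TMM supplied scaling, and the robust quasi-likelihood model had 1 mean for each group of the 9 libraries. All 3 contrasts were adjusted by Benjamini-Hochberg over the tested genes. A call needed both an adjusted p below 0.05 and a log2 fold change beyond 1 in either direction. The p-values set each difference against the spread between these replicates, pooled over the 3 groups and moderated across genes. CPM are counts over effective library sizes. Replicates of a group differed beyond sampling noise (chi-square per degree of freedom 1.83 to 3.35), so all were kept. GENCODE 44 (GRCh38) supplied positions and exon lengths, with 14136 tested genes (88.7%) found by symbol, and RefSeq supplied promoters. Intervals on counts cover counting error only. At these depths standard errors were 0.040 to 0.182 for the tested family members.

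Named list genes were the 20 with the largest fitted change among those called against control, and for the 3 members with the widest range of group means the 3 genes with the highest correlation of log2 CPM. A few genes outside this rule are named where they limit what a list or sum covers. The members and lists were chosen with earlier results of these data known. 1 gene of the pathway lists is not reported here and was left out of their counts and medians. The fitting code was tested on simulated data. Alternatives were fits on 6 libraries, DESeq2 1.42.0, RLE factors, library size alone, other count filters, a replicate block, each library left out and no fold threshold. For ratios and shares, the longest transcript replaced the exon union.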

Additional observations from a re-analysis of the deposited data

How the results depend on the processing

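Of the log2 fold changes of the 8 tested genes recomputed under other settings, 379 kept their sign and their side of the call threshold. The sign turned for 3, all with library size alone, where IGF1R was -0.38 with CoCl2 against control and IGF2R and IGFBP6 were -0.22 and -0.10 with CoCl2 against OD. IRS2 between the treatments fell under the fold threshold there (0.79), as did IGFBP6 with OD without control replicate 2 (0.99). Library size alone lowered the share of higher calls with CoCl2 from 46.0% to 23.9%, and against OD from 42.4% to 18.3%. Without the fold threshold, 13260, 10466 and 13311 genes passed with CoCl2, OD and between them, and 8 members passed with CoCl2 and between them, because the rule is wider. With at least 10 counts in every library 1134 genes were called with OD, with fewer genes tested. Leaving out each library gave 6908 to 7207, 2150 to 2274 and 6572 to 6917 genes called and 4, 4 to 5 and 4 members. With the longest transcript, IGFBP4 held 73.7% of the 5 chosen binding-protein transcripts in control, 31.9% with CoCl2 and 72.9% with OD, and IGFBP6 held 25.5%, 67.0% and 25.96%. Deviations of same-numbered replicates from their group means correlated at -0.0049 to 0.038, beside -0.047 to 0.025 for differently numbered ones. No strong pairing by number was seen, but with 3 replicates per group this check cannot exclude a weak one. With the replicate block 6901, 2115 and 6568 genes and 4, 5 and 4 members were called. Depth limits what can be said of IGFBP1, IGFBP3, PAPPA and IGF1, with at most 7 counts in any library.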
